A study of Homo sapiens with 148 samples.

Results

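Expression of the genes that load, release and acetylate cohesin was followed by RNA-seq as H9 human embryonic stem cells (hESCs), an established cell line, were differentiated toward pancreatic islet organoids. The members are 9 genes, NIPBL, MAU2, WAPAL, PDS5A, PDS5B, ESCO1, ESCO2, HDAC8 and CDCA5, picked by name out of the 49085 gene names of the expression table, and all of them are present with a single entry. WAPAL is the older symbol of WAPL, which is the name used from here on. They were chosen by function, though with earlier results of these data known. They fall into 2 loaders (NIPBL and MAU2), 3 release factors (WAPL, PDS5A and PDS5B) and 4 acetylation genes (ESCO1, ESCO2, HDAC8 and CDCA5).

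Cohesin is a ring built on SMC1A, SMC3 and RAD21 that extrudes chromatin loops until it meets CTCF, and that holds sister chromatids together after replication. NIPBL and MAU2 form the loader that places the ring on chromatin, whereas WAPL, acting with PDS5A or PDS5B, opens the ring and takes it off. ESCO1 and ESCO2 acetylate SMC3 and thereby stabilize the ring, sororin (the product of CDCA5) protects acetylated rings from WAPL, and HDAC8 removes the acetyl group so that cohesin can be used again.

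Of the 148 samples in the series, 12 are RNA-seq samples, 2 for each of 6 stages, all wild type and all from H9. The stages are undifferentiated hESCs, definitive endoderm (DE, day 4, after Activin A and CHIR99021), primitive gut tube (PGT, day 7, after KGF), pancreatic progenitors (PP, day 14, after KGF, Sant1, retinoic acid, LDN193189 and PdBU), and organoids of β-like cells (SC-β, day 35, after further steps with XXI, Betacellulin, Alk5i II and T3). The sixth stage is named PH and carries the label of pancreatic differentiation, but its meaning, day and medium are not given in the sources used here. Cells were differentiated as spheroids, with Y27632 in the medium of several steps. Each library is bulk RNA, in which fewer cells of a type and less RNA per cell cannot be told apart.

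Levels are in TPM, the share of transcripts that come from a gene, corrected for transcript length and brought to the same total in every stage. The table gives 1 value per gene and stage, the authors' mean over replicates. No value below therefore has an error, no difference was tested, and neighbouring stages in an order cannot be separated from replicate spread. Ratios to hESCs are log2((TPM + 1)/(hESC TPM + 1)), and a gene was counted as higher or lower at 2-fold or more on that scale. All 5 ratios of a gene share the hESC value.

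The stages differed in composition. Structural RNA and mitochondrial genes took from 37.3% of all TPM in DE to 56.0% in PH, and between 16784 and 24571 names reached 1 TPM. The stages were therefore also rescaled by the median ratio over the 13938 names at 1 TPM or more in every stage, which takes 0.48 off the log2 ratio to hESCs in DE, 0.34 in PGT, 0.25 in PP, 0.03 in PH and 0.52 in SC-β, before the pseudocount. Stage markers peaked at their own stage for POU5F1 (1449 TPM in hESCs), SOX17 (96.1 TPM in DE), FOXA1 (86.0 TPM in PGT), PDX1 (only 3.17 TPM in PP) and INS (298 TPM in SC-β). GCG, the glucagon gene, also peaked in SC-β, at 2793 TPM, and so was well above INS there. In PH all 5 neural progenitor markers were at 1 TPM or more and summed to 322.8 TPM, against 28.2 to 132.1 TPM elsewhere. NES was at 135.8 TPM in PH but also at 121.4 TPM in hESCs, whereas HES5 was at 109.8 TPM in PH and at most 1.51 TPM elsewhere. Mesenchymal markers summed to 1913 TPM in PH and 2866 TPM in SC-β, against 65.3 to 393.5 TPM in the other stages. VIM was most of these sums, at 1437 TPM in PH and 1767 TPM in SC-β, as it was in hESCs (226.1 TPM) and PP (352.9 TPM). COL3A1 was at 348.6 and 770.7 TPM in PH and SC-β, and COL1A1 at 42.9 and 34.1 TPM. Hepatic markers summed to 1220 TPM in PGT and 1338 TPM in SC-β, against 3.77 to 106.8 TPM elsewhere. Most of both sums was TTR, at 943.2 TPM in PGT and 1228.7 TPM in SC-β. ALB was at 2.99 and 39.3 TPM in these stages, AFP at 22.2 and 34.3 TPM, and APOA1 at 251.8 and 36.05 TPM. The endothelial sum was highest in DE at 198.7 TPM, and most of it was VWF, at 191.1 TPM. KDR was instead highest in hESCs, at 20.2 TPM, and PECAM1 and CDH5 were below 1 TPM in every stage. The part of such cells in the values below was not tested.

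NIPBL, MAU2, PDS5A, PDS5B and HDAC8 were lowest in hESCs, both in the deposited values and after rescaling. ESCO2 and CDCA5 were highest in hESCs on both scales, and ESCO1 was below its hESC level from PGT onward. WAPL stood between these patterns, and the direction of its ratio to hESCs turned with the rescaling in DE, PGT and SC-β.

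**Figure D1:**
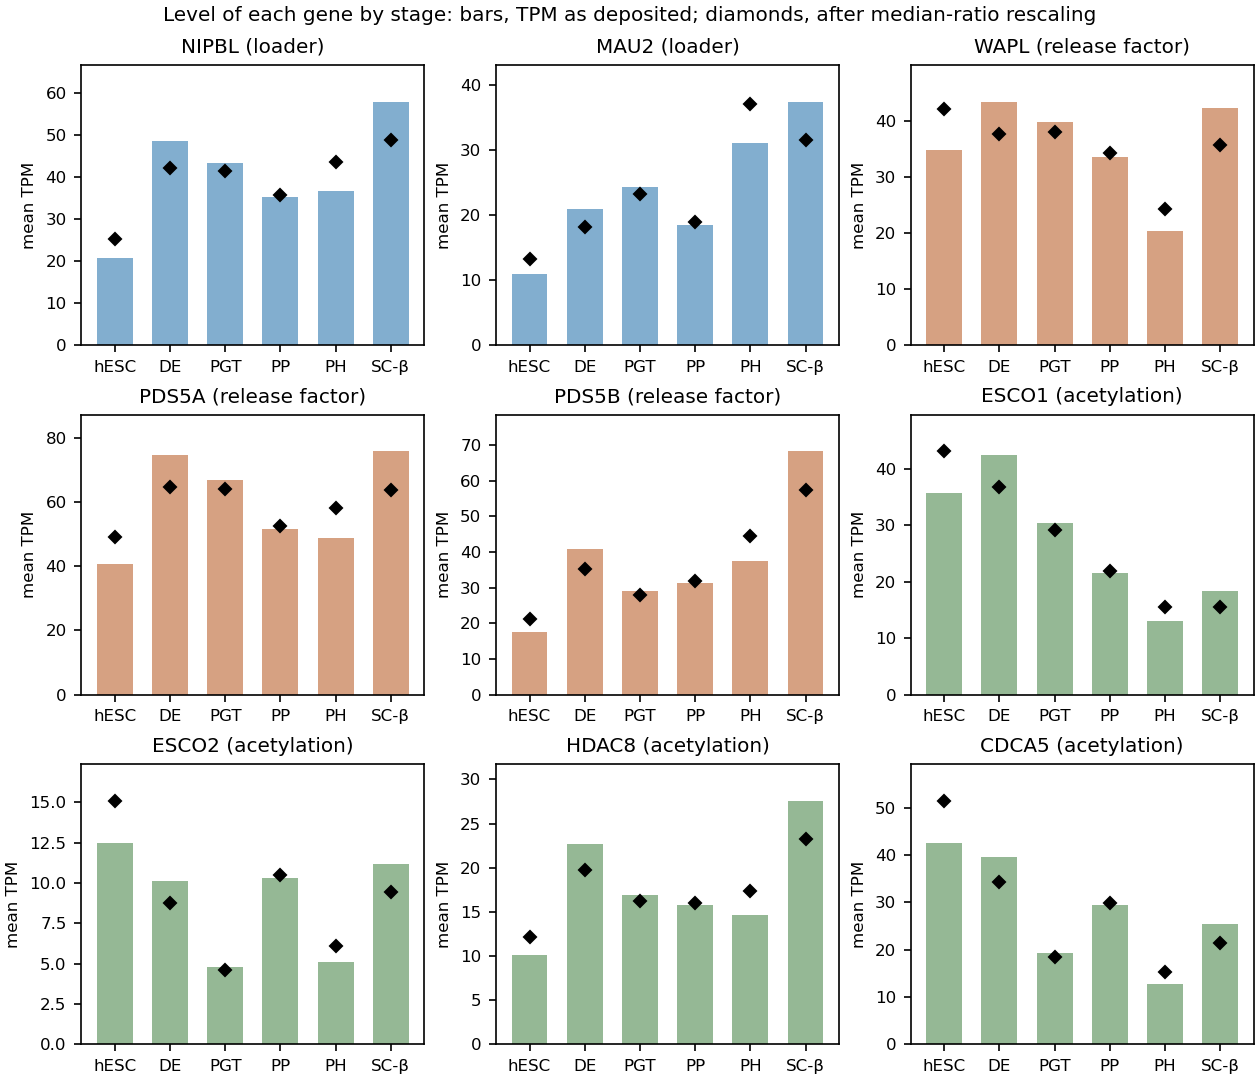
Mean TPM (vertical axis, from 0) of each of the 9 genes at the 6 stages, with bars for the deposited values, diamonds for the rescaled values and color for the role, and no error bars because the table holds 1 mean per stage. NIPBL, MAU2, PDS5A, PDS5B and HDAC8 are lowest in hESCs on both scales, and ESCO2 and CDCA5 dip in PGT and PH.

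Because every member was above 1 TPM at every stage, each count is set beside the share among names at 1 TPM or more in either stage (expressed names), followed by the share among all names. In DE 3 of 9 members were at least 2-fold higher than in hESCs (NIPBL, PDS5B and HDAC8), against 28.2% of expressed and 12.9% of all names, and 0 were lower (5.55% and 2.55%). In PGT 2 were higher (NIPBL and MAU2, against 23.4% and 10.1%) and 2 lower (ESCO2 and CDCA5, against 10% and 4.34%). PP had no member past 2-fold, where 18.9% of expressed and 7.98% of all names were higher and 9.63% and 4.06% lower. In PH 2 were higher (MAU2 and PDS5B, against 27.3% and 12.1%) and 3 lower (ESCO1, ESCO2 and CDCA5, against 18.9% and 8.35%). In SC-β 4 were higher (NIPBL, MAU2, PDS5B and HDAC8, against 42.4% and 22.2%) and 0 lower (7.08% and 3.7%). In DE, PGT, PH and SC-β the counts of higher members were thus near what expressed names gave.

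Rescaling moved this split. DE then had no member past 2-fold, where 16.2% of expressed and 7.32% of all names were higher and 10.7% and 4.82% lower. PGT had 0 higher (16.3% and 7.1%) and kept ESCO2 and CDCA5 as lower (14.6% and 6.37%), and PP again had none (14.7% and 6.33% higher, 13.2% and 5.69% lower). PH kept the same 2 higher (27.7% and 12.9%) and 3 lower (19.4% and 9.01%). SC-β had 2 higher (MAU2 and PDS5B, against 29.4% and 14.9%) and 2 lower (ESCO1 and CDCA5, against 13.3% and 6.76%). The median log2 ratio of the 9 members as deposited was 0.87 in DE, 0.70 in PGT, 0.34 in PP, 0.26 in PH and 0.89 in SC-β. The medians of expressed names were 0.58, 0.41, 0.31, 0.28 and 0.83 in the same order. After rescaling the members' medians were 0.39, 0.38, 0.10, 0.24 and 0.37, beside 0.17, 0.11, 0.09, 0.27 and 0.43 for those names, so the set as a whole lay close to the other expressed names in PP, PH and SC-β.

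**Figure D2:**
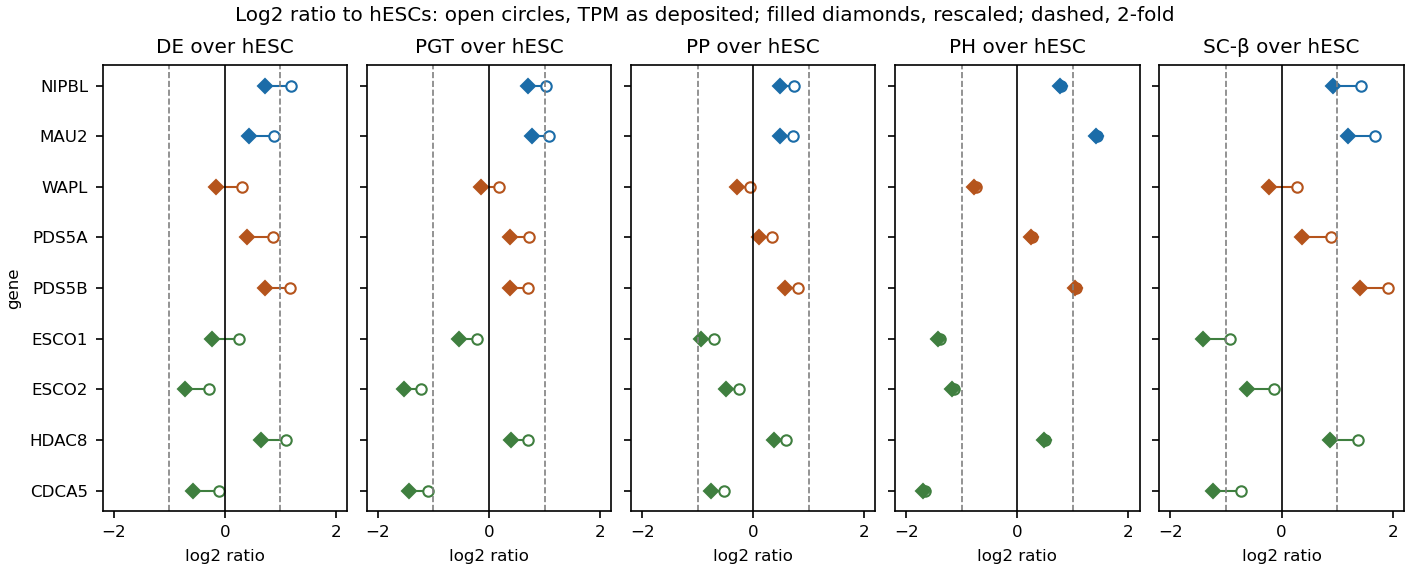
Log2 ratio to hESCs (horizontal axis) of each gene in the 5 other stages, 1 panel per stage, with open circles for the deposited and filled diamonds for the rescaled values, a solid line at 0 and dashed lines at 2-fold. In SC-β PDS5B and MAU2 lie furthest above 0 on both scales, CDCA5 in PH lies furthest below 0, and WAPL crosses 0 between the scales in DE, PGT and SC-β, as does ESCO1 in DE.

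NIPBL, the large subunit of the loader that also stimulates the cohesin ATPase, lies at chr5:36876769-37066413 on the plus strand of GRCh38. NIPBL was at 20.8 TPM in hESCs and 48.6 in DE, then 43.3 in PGT and 35.2 in PP, with 36.7 in PH and 57.9 in SC-β. It was lowest in hESCs and highest in SC-β, with a decline from DE to PP between them. Its log2 ratios were 1.18 in DE, 1.02 in PGT, 0.73 in PP, 0.79 in PH and 1.43 in SC-β, and 0.72, 0.70, 0.49, 0.77 and 0.93 after rescaling, so the 2-fold difference in 3 stages was not kept on that scale. At 0.93 NIPBL stood at percentile 82.1 among the 13938 names at 1 TPM or more in every stage.

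MAU2, the partner that NIPBL needs for stability, lies at chr19:19320829-19358754 on the plus strand. MAU2 was at 10.9 TPM in hESCs and 20.9 in DE, then 24.3 in PGT and 18.5 in PP, with 31.1 in PH and 37.4 in SC-β. PH and SC-β were above the other stages. Its log2 ratio was 1.43 in PH and 1.69 in SC-β, and 1.42 and 1.19 after rescaling, which keeps both past 2-fold. MAU2 per NIPBL was 0.524 in hESCs and 0.431 in DE, then 0.561 in PGT and 0.527 in PP, with 0.848 in PH and 0.646 in SC-β. This ratio of levels per length does not depend on the scaling of a stage, and it was highest in PH.

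WAPL, the release factor, lies at chr10:86435256-86521792 on the minus strand. WAPL was at 34.9 TPM in hESCs and 43.4 in DE, then 39.7 in PGT and 33.6 in PP, with 20.4 in PH and 42.4 in SC-β. PH alone stood apart as the lowest stage, and the other 5 lay within 33.6 to 43.4 TPM. The log2 ratio was 0.31 in DE, 0.18 in PGT and 0.27 in SC-β as deposited but -0.16, -0.15 and -0.24 after rescaling, whereas in PH it was -0.75 and -0.78. SC-β over PH reached 2-fold as deposited (log2 ratio 1.02, background 28.1% of expressed names) but not after rescaling (0.54). WAPL per NIPBL was 1.67 in hESCs and 0.894 in DE, then 0.917 in PGT and 0.955 in PP, with 0.556 in PH and 0.732 in SC-β. WAPL mRNA thus exceeded NIPBL mRNA per length in hESCs and in no later stage, and the hESC ratio was 3.01 times that of PH and 2.29 times that of SC-β.

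PDS5A and PDS5B are paralogs that bind the ring and serve both WAPL and sororin. PDS5A (chr4:39822863-39977956, minus strand) was at 40.6 TPM in hESCs and 74.8 in DE, then 67.0 in PGT and 51.8 in PP, with 48.9 in PH and 75.9 in SC-β. After rescaling it ran only from 49.1 TPM in hESCs to 64.8 in DE, a highest over lowest ratio of 1.32 that stood at percentile 2.07 of the names at 1 TPM or more in every stage. PDS5A was thus among the most even of these names on that scale. PDS5B (chr13:32586452-32778019, plus strand) was at 17.5 TPM in hESCs and 40.8 in DE, then 29.1 in PGT and 31.3 in PP, with 37.4 in PH and 68.3 in SC-β. It had the widest range of the members as deposited, 3.91-fold, and its log2 ratio in SC-β was 1.91, or 1.40 after rescaling, at percentile 91.5. From PP to SC-β it was 2-fold higher as deposited (log2 ratio 1.10, background 20.7% of expressed names). PDS5B per PDS5A was 0.430 in hESCs and 0.546 in DE, then 0.434 in PGT and 0.605 in PP, with 0.765 in PH and 0.900 in SC-β, so the paralogs were near equal in SC-β, at 2.09 times the hESC ratio.

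**Figure D3:**
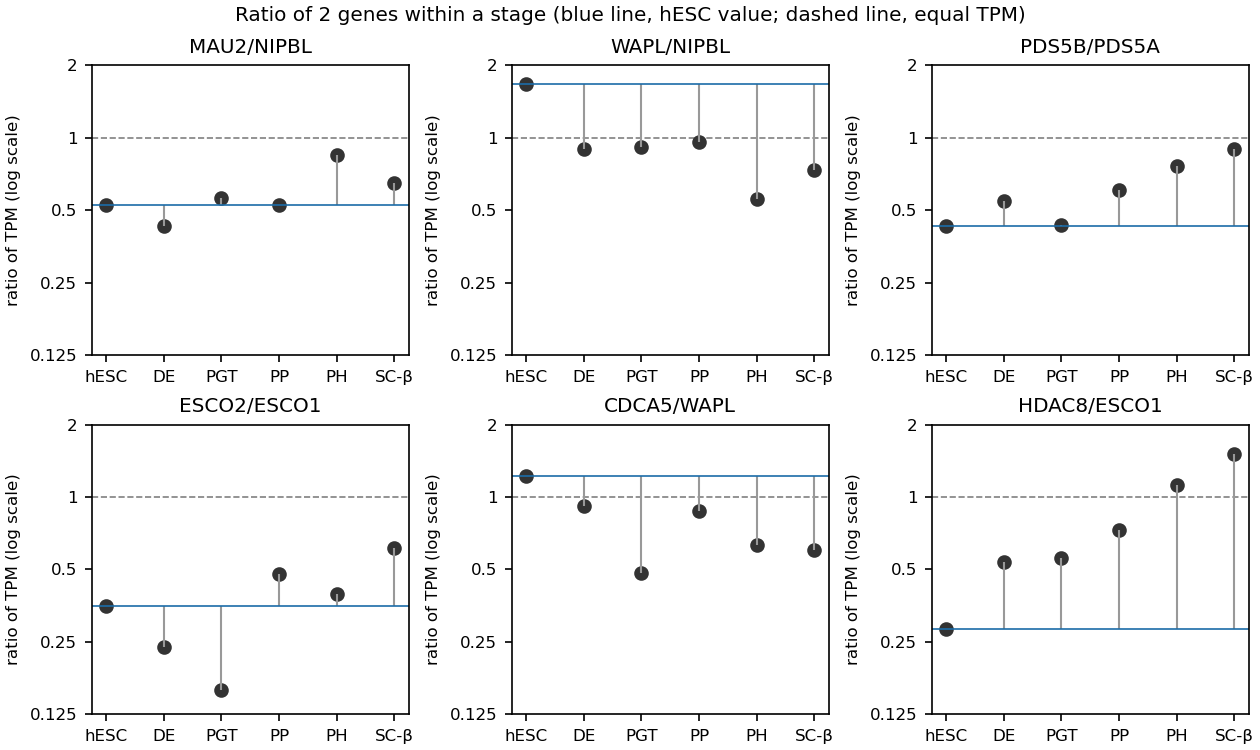
Ratio of the deposited TPM of a gene to that of another in the same stage (log axis) for 6 pairs, with the blue line at the hESC value and the dashed line at equal TPM. HDAC8 per ESCO1 and PDS5B per PDS5A are highest in SC-β, and WAPL per NIPBL is above 1 in hESCs alone.

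The promoters of 7 of the 9 members were matched in RefSeq (GRCh38.p14), as the 250 bases before the start. Both strands were searched for 5 motifs. The cell cycle homology element was searched as TTTGAA, which is in 13.3% of the 35116 promoters of this length, and as TTCGAA, which reads alike on both strands and is in 1.19%. The E2F motif was searched as TTTCGCGC, present in 0.439% of promoters, and as TTTGGCGC, present in 0.55%, and the CCAAT box is in 32.0%. CDCA5 alone of the members held the TTCGAA form, NIPBL alone held TTTGGCGC, and WAPL, PDS5A and PDS5B held the CCAAT box. The other motifs were in none of the 7, and the promoters of MAU2 and HDAC8 held none at all. Shown 5′ to 3′ on the gene's strand are CDCA5 (chr11:65084041-65084290, minus strand), the member furthest below hESCs in PH, NIPBL (chr5:36876519-36876768, plus strand), the loader, and PDS5B (chr13:32586202-32586451, plus strand), the member furthest above hESCs in SC-β. Capitals mark the cell cycle element in CDCA5, the E2F motif in NIPBL, and in PDS5B the CCAAT box, which lies on the opposite strand.
CDCA5: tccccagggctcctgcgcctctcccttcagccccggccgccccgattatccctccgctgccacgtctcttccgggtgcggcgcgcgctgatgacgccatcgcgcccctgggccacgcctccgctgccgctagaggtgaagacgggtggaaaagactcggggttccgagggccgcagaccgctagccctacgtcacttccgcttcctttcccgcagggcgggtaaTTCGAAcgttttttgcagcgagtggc
NIPBL: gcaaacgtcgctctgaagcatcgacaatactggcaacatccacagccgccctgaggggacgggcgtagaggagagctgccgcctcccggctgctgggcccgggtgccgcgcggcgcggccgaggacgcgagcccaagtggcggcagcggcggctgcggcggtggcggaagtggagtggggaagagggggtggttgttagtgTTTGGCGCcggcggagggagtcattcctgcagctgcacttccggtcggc
PDS5B: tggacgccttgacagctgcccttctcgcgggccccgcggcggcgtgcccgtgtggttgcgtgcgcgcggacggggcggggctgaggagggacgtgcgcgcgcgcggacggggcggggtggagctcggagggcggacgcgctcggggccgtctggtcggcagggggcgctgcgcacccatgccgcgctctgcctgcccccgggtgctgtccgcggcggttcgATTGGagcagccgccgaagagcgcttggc
PDS5B is the richest in G and C of the 7 at 78%, with 41 CG pairs, and HDAC8 the poorest at 48%, with 7, around medians of 58% and 11 over all promoters. A match is a description of these letters, and no binding was measured in them here. In GENCODE 44 the CDCA5 gene spans chr11:65066300-65084164, so that the marked element lies inside the gene there. The HDAC8 gene spans chrX:72329516-72573101 there, and all 250 bases read for HDAC8 (chrX:72572844-72573093) lie inside it. The base content and lack of motifs given for HDAC8 thus describe a stretch within that gene. The 250 bases of PDS5A (chr4:39977912-39978161) lie partly inside its gene (chr4:39822863-39977956).

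CDCA5 encodes sororin. CDCA5 was at 42.6 TPM in hESCs and 39.7 in DE, then 19.2 in PGT and 29.4 in PP, with 12.8 in PH and 25.4 in SC-β. The level was lowest in PH and next lowest in PGT, with PP and SC-β between these and the first stages. Its log2 ratio was -1.11 in PGT and -1.66 in PH, and -1.44 and -1.69 after rescaling, while SC-β passed 2-fold only after rescaling (-0.72 against -1.23). Between neighbouring stages it was 2-fold lower in PGT than in DE (-1.01, background 10.6% of expressed names) and in PH than in PP (-1.14, background 12.8%), both as deposited only. CDCA5 per WAPL, sororin beside the factor it opposes, was 1.22 in hESCs and 0.914 in DE, then 0.484 in PGT and 0.876 in PP, with 0.628 in PH and 0.600 in SC-β, and so was above 1 in hESCs alone.

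HDAC8, the SMC3 deacetylase, lies at chrX:72329516-72573101 on the minus strand. HDAC8 was at 10.1 TPM in hESCs and 22.7 in DE, then 16.9 in PGT and 15.7 in PP, with 14.6 in PH and 27.6 in SC-β. DE and SC-β were the high stages. The log2 ratios of 1.10 in DE and 1.37 in SC-β became 0.65 and 0.88 after rescaling. GENCODE 44 lists another gene, ENSG00000285547, on the same strand over 243328 of the bases of HDAC8, so the reads assigned to HDAC8 are uncertain.

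The acetyltransferases differ in timing, ESCO2 acting in S phase and ESCO1 through interphase. ESCO1 (chr18:21529284-21600884, minus strand) was at 35.6 TPM in hESCs and 42.5 in DE, then 30.4 in PGT and 21.5 in PP, with 13.0 in PH and 18.3 in SC-β. From DE on, the level was lower at each of PGT, PP and PH, and SC-β lay between PP and PH. Its ratio to hESCs in DE was 0.25 as deposited but -0.22 after rescaling, while the later stages were below hESCs on both scales. The log2 ratio was -1.39 in PH and -0.92 in SC-β as deposited, and -1.42 in both after rescaling, where SC-β stood at percentile 7.33 of the names at 1 TPM or more in every stage.

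ESCO2 (chr8:27771949-27812640, plus strand) was at 12.5 TPM in hESCs and 10.1 in DE, then 4.80 in PGT and 10.3 in PP, with 5.12 in PH and 11.2 in SC-β. PGT and PH formed the low pair, and the other 4 stages lay within 10.1 to 12.5 TPM as deposited. The log2 ratio was -1.22 in PGT and -1.14 in PH, and -1.52 and -1.18 after rescaling. From PGT to PP it was 2-fold higher after rescaling but not as deposited (log2 ratio 1.04 against 0.96, or 1.08 as deposited with a pseudocount of 0.1 TPM, background 6.99% of expressed names). The span of the gene meets those of PBK (3017 bases) and CCDC25 (705 bases) on the opposite strand, and because the strand setting of the quantification is not stated, reads shared with them cannot be told apart. PBK was at 4.03 TPM in PGT but at 12.5 TPM in PH.

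ESCO2 per ESCO1 was 0.350 in hESCs and 0.238 in DE, then 0.158 in PGT and 0.478 in PP, with 0.394 in PH and 0.611 in SC-β. ESCO1 exceeded ESCO2 per length in every stage, by least in SC-β. HDAC8 per ESCO1, the deacetylase beside the interphase acetyltransferase, was 0.282 in hESCs and 0.535 in DE, then 0.557 in PGT and 0.731 in PP, with 1.12 in PH and 1.51 in SC-β. This ratio was higher at each listed stage than at the one before it, and in SC-β it was 5.33 times the hESC value. The place of PH in that order is not known, and the uncertainty of the reads assigned to HDAC8 holds for this ratio too.

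ESCO2 moved with genes of cycling cells. A list of 20 such genes (MKI67, TOP2A, CCNB1 and others) summed to 1531 TPM in hESCs and 1227 in DE, then 653.9 in PGT and 1368 in PP, with 651.3 in PH and 1395 in SC-β. In PGT 12 of the 20 and in PH 14 of the 20 were at least 2-fold lower than in hESCs, with median log2 ratios of -1.11 and -1.26, and 1, 2 and 2 were lower in DE, PP and SC-β, with none higher in any stage. After rescaling 6, 15, 3, 14 and 6 were lower in DE, PGT, PP, PH and SC-β. Of expressed names 5.55%, 10%, 9.63%, 18.9% and 7.08% were lower in that order as deposited, and 10.7%, 14.6%, 13.2%, 19.4% and 13.3% rescaled. The lowest of the list was CCNE1 in PH, at 2.25 TPM and a log2 ratio of -3.69. MKI67, a common marker of cycling cells, did not share the low values, with log2 ratios of 0.13 in PGT, 0.47 in PH and 0.94 in SC-β (-0.19, 0.45 and 0.44 rescaled), so its direction in PGT turned with the scale. E2F1 was also above hESCs in PH (0.57, or 0.55 rescaled) and was at -0.16 in PGT (-0.48 rescaled). ESCO2 was 0.815% of the list's sum in hESCs and 0.824% in DE, then 0.734% in PGT and 0.752% in PP, with 0.786% in PH and 0.803% in SC-β, a narrow range. CDCA5 was 2.78%, 3.23%, 2.94%, 2.15%, 1.97% and 1.82% of the sum in the same order, and ESCO1 was 2.33%, 3.46%, 4.65%, 1.57%, 1.99% and 1.31%.

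Across the 6 stages, Pearson's r between log2 levels and the list's sum was 0.996 for ESCO2 and 0.853 for CDCA5, against 0.352 for ESCO1 and 0.500 for WAPL. The remaining members lay between -0.45 (MAU2) and 0.06 (HDAC8). After rescaling, ESCO2 and CDCA5 were at 0.996 and 0.851 and ESCO1 and WAPL at 0.341 and 0.459, while the remaining members were at -0.71 (PDS5A), -0.68 (NIPBL), -0.65 (MAU2), -0.35 (HDAC8) and -0.30 (PDS5B). These are descriptions over 6 points that share a TPM total within each stage. The part of the share of cycling cells in the levels of ESCO2 and CDCA5 was not tested.

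**Figure D4:**
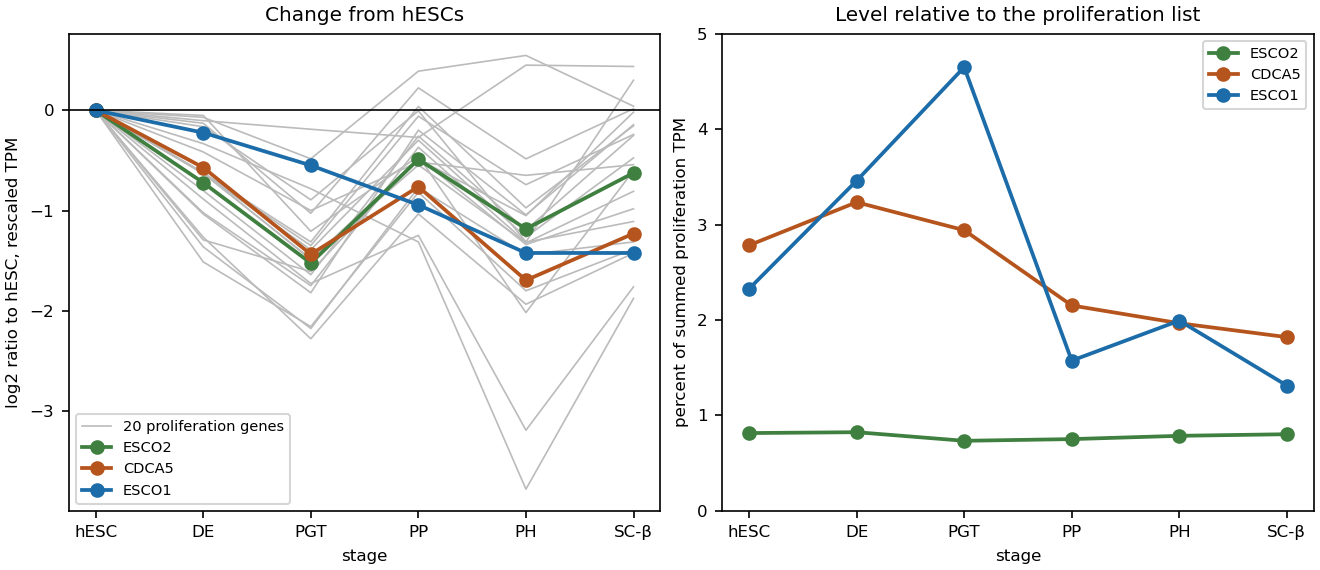
Left, rescaled log2 ratio to hESCs of ESCO2, CDCA5 and ESCO1 beside the 20 proliferation genes (grey), and right, the TPM of the same 3 genes as a percent of the summed TPM of those 20, with lines that only join the values of a gene. ESCO2 stays between 0.734% and 0.824% of the sum, whereas ESCO1 ranges from 1.31% to 4.65%.

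The other genes of the cohesin cycle, a list of 37, were 5 higher and 2 lower in DE, 2 and 12 in PGT, 3 and 5 in PP, 3 and 15 in PH and 6 and 7 in SC-β, with medians of 0.10, -0.34, -0.01, -0.72 and 0.06. After rescaling these counts were 2 and 8, 2 and 14, 3 and 8, 3 and 15, and 4 and 11, and the medians were -0.20, -0.67, -0.26, -0.75 and -0.36, which turns the direction in DE and SC-β. Of expressed names 28.2%, 23.4%, 18.9%, 27.3% and 42.4% were higher as deposited, and 5.55%, 10%, 9.63%, 18.9% and 7.08% lower. Rescaled, 16.2%, 16.3%, 14.7%, 27.7% and 29.4% were higher, and 10.7%, 14.6%, 13.2%, 19.4% and 13.3% lower. These shares also apply to the counts of the smaller lists below, with a limit. Of the 37 genes 35 were at 1 TPM or more, and SMC1B and RAD21L1 were not. They are thus not among the expressed names, and with a pseudocount of 1 TPM they could not reach 2-fold. The shares among all names are given with the counts of members above. Among the 6 core genes with CTCF, only STAG1, which encodes one of the alternative subunits of the ring, reached 2-fold, with 18.2 TPM in hESCs and 53.8 TPM in SC-β (log2 ratio 1.51, or 1.01 rescaled). RAD21 lay between 76.3 and 139.0 TPM and SMC3 between 55.5 and 91.4 TPM. The median of the 6 was 0.44 in DE and 0.25 in SC-β as deposited but -0.03 and -0.26 after rescaling, so it has no direction that both scales share there.

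Genes that protect or remove cohesin in mitosis (8) were lower in 6 cases in PGT and 7 in PH, against 2 in DE, 1 in PP and 2 in SC-β. After rescaling 4 were lower in DE, 7 in PGT, 3 in PP, 7 in PH and 3 in SC-β. PTTG1, which encodes securin, went from 188.7 TPM in hESCs to 28.5 in PGT and 82.2 in SC-β. ESPL1, which encodes separase, was the only one of the 8 that was higher, in SC-β (log2 ratio 1.00, or 0.51 rescaled). Of 14 genes of replication-coupled cohesion, 6 were lower in PGT, 4 in PP, 8 in PH and 5 in SC-β, none in DE, and CHTF18 alone was higher, in DE (1.25, or 0.79 rescaled). After rescaling 4 of the 14 were lower in DE, 7 in PGT, 5 in PP, 8 in PH and 8 in SC-β. MCM5, a subunit of the replicative helicase, had the lowest ratio of the 37 in SC-β, -1.34, or -1.86 rescaled. DSCC1, which joins CHTF18 in a clamp loader, had its lowest value in PH at 3.89 TPM, against 33.6 TPM in hESCs.

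Of 5 partners of loading, MED12, a subunit of the Mediator kinase module, was higher in all 5 stages, with 5.33 TPM in hESCs and at least 24.4 TPM later. Of 4 meiotic or tissue-restricted subunits, 2 were higher in DE, PP, PH and SC-β and 1 in PGT. REC8 was at 16.9 TPM in hESCs and 35.8 in DE, then 12.0 in PGT and 62.1 in PP, with 42.0 in PH and 75.8 in SC-β, and SMC1B and RAD21L1 were below 1 TPM in every stage. STAG3 was at 4.05 TPM in hESCs and between 10.6 and 26.2 TPM later, but near-identical copies of it exist, so its reads are uncertain.

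Gene length moved with the ratios as well. Over protein-coding names at 1 TPM or more in every stage, the median rescaled log2 ratio in SC-β was -0.32 for the 3507 genes that span under 20 kb, -0.12 for 20 to 50 kb, 0.03 for 50 to 100 kb and 0.37 for the 2243 at 100 kb or more. NIPBL (189.6 kb), PDS5A (155.1 kb), PDS5B (191.6 kb) and HDAC8 (243.6 kb) are in the longest class, and CDCA5 (17.9 kb) is in the shortest. Within its own length class in SC-β, PDS5A stood at percentile 50.2, HDAC8 at 70.5, NIPBL at 71.9, PDS5B at 83.7 and MAU2 at 91.5, while CDCA5 stood at 15.0 and ESCO1 at 6.05. The part of gene length in these ratios was not tested.

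The names with the profile most like each member, by the root-mean-square difference of centred log2(TPM + 1) over the 6 stages among 16417 names at 5 TPM or more in some stage, were listed as a description. Only the deposited values were used for this, so differences of scale between stages are part of the profiles. For NIPBL they were HERC2 (0.049), ZNF148 (0.053) and MED13 (0.062), and for MAU2 they were ZFP28 and XRN1 (0.045 each) and ZBED3-AS1 (0.069). For WAPL they were TM9SF3 (0.043), RPL7AP11 (0.053) and SF3B3 (0.060), and for PDS5A they were TECPR2 (0.039), MIER2 and CBLL1 (0.045 each). PDS5B was nearest to RP11-530C5.4 (0.042), RNU7-134P (0.062) and CTD-2339M3.1 (0.063), none of which exceeded 12.3 TPM. ESCO2 was nearest to CDC25C (0.064), the phosphatase that activates CDK1, to KIF23 (0.073), a kinesin of cytokinesis, and to HAUS7 (0.086), an augmin subunit of the spindle. CDCA5 was nearest to HIGD1AP1 (0.084), BRIX1 (0.090) and ZWILCH (0.105), a kinetochore protein gene. ESCO1 was nearest to NGFRAP1 (0.082), SPATA24 (0.090) and PDCD10 (0.095), and HDAC8 to VAPB (0.051), SETD1A (0.060) and ATR (0.062).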

How the data were processed

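RNA was measured in 12 samples of H9 cells at 6 stages. Per the labels, ribosomal RNA was removed with a RiboMinus kit and libraries were made with a stranded TruSeq mRNA kit. The authors aligned reads to hg38 with HISAT2 2.2.0 and computed TPM with StringTie 2.1.6, and deposited the mean TPM of each stage. The gene annotation is not given in the sources used here, and TPM keeps no read depth. The study's own test needs counts per replicate, so no test was made. Other assays of the series were not analysed here.

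Entries that share a name were summed (231 names, no member among them). Ratios used a pseudocount of 1 TPM and a 2-fold limit. Rescaling, alternatives and the nearest profiles were computed in Python 3.11.15 with numpy 2.4.6, pandas 2.3.3 and scipy 1.17.1, drawn with matplotlib 3.10.9 and tested on simulated data. Gene positions are from GENCODE 44. Named were all 9 members, for each the 3 nearest profiles, stage and cell type markers, and list genes that reached 2-fold or were extreme in SC-β. RAD21, SMC3, PBK, E2F1 and the always-low subunits were added after their values were seen. The members and lists were chosen with earlier results of these data known, and the percentiles and gene length classes after these values were seen. Alternatives were rescaling, another pseudocount, a low-value filter, a 1.5-fold limit, the preceding stage as reference, the highest entry of a name, and totals without structural and mitochondrial genes or without the 100 most abundant names. 1 gene of the pathway list is not reported here by name.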

Additional observations from a re-analysis of the deposited data

How the results depend on the processing

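Of the counts of members under the alternatives, 64 stayed within 1.5 times of the count given and 16 did not. The 64 include 10 under the low-value filter and 10 under the choice of entry, which could not move. After rescaling, the members 2-fold above hESCs numbered 0 in DE in place of 3, 0 in PGT in place of 2 and 2 in SC-β in place of 4, and those below numbered 2 in SC-β in place of 0. A 1.5-fold limit gave 5 above in DE, 5 in PGT and 4 in PP, and 1 below in PP and 2 in SC-β. With the preceding stage as reference, 0 were above in PGT, 0 in PH and 1 in SC-β, and 1 was below in PGT and 1 in PH, since that setting asks about another pair of stages, and NIPBL in PGT turned to -0.16. Totals without structural and mitochondrial genes, or without the 100 most abundant names, gave 1 below in SC-β (ESCO1, at -1.01 and -1.07). Under these totals NIPBL in PH passed 2-fold (1.19 and 1.13) and ESCO2 in PH did not (-0.84 and -0.91), while HDAC8 in DE fell short without the 100 most abundant names only (0.97, leaving 2 members above in DE), and WAPL in PP changed sign (0.09 and 0.07). The cause was not tested. A pseudocount of 0.1 TPM changed no call against hESCs. Between other stages, where it was tried after seeing the data, it added 4 calls, ESCO2 in PGT over DE (-1.06), PP over PGT (1.08) and SC-β over PH (1.11), and MAU2 in SC-β over PP (1.01). The low-value filter and the choice of entry could not change a call, because every member has 1 entry above 1 TPM. Ratios between members within a stage moved by at most 1.75%. No paired analysis was possible because each deposited column already averages the 2 replicates of a stage, and leaving out a replicate was not possible either. Depth is unknown from TPM, so the lowest levels, those of ESCO2 in PGT and PH, have no counting interval.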
